A study of Mus musculus with 2 samples.

Results

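Footprints that lie outside every called peak were examined in 2 DNase-seq libraries of mouse cerebellum. A footprint is a short run of bases, here 7 to 84 bp long, that DNase I cut less than its accessible surroundings, and a peak is a longer stretch that was cut often. The members were chosen by the authors' own calls: a footprint was taken as outside when it shared no base with a peak of either of the 2 peak lists deposited for its library. This rule gave 53880 of 314116 footprints in replicate 1 and 50830 of 320832 in replicate 2. These are 17.2% and 15.8% of all footprints, and the 2 sets hold 104710 of the 634948 footprints of both libraries.

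The tissue was whole cerebellum of male B6CASTF1/J mice, the offspring of a cross of laboratory and wild-derived strains, at 8 to 10 months of age. Each library was made from its own pool of 2 biosamples, and no treatment or altered allele is named. Nothing in the labels tells if both pools drew on the same mice, and the spread between libraries may in part be technical. All cell types of the tissue entered a library together. A footprint of a rare cell type and a weak footprint of a common one can therefore not be told apart.

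DNase I cuts DNA where nucleosomes are absent or loose. A bound protein shields the bases that it contacts, which leaves a dip in the cuts within an accessible region. Active promoters in brain are often rich in CG and bound by general factors such as SP1, NRF1 and ETS proteins, whereas distal elements of cerebellar granule neurons carry sites of NFI, ZIC and NEUROD/ATOH proteins. CTCF, which organises chromatin loops, leaves a long footprint. Peak calling and footprint calling work at different scales, so a footprint can be called on the flank of a region whose centre alone is the peak. How far the outside footprints lay from the peaks is given below.

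The stretch of 200 bp upstream of Cactin, a splicing regulator, shows what the set looks like in sequence. It lies at chr10:81320882-81321081 (GRCm38, the assembly also called mm10, plus strand), 121 bp from the gene start to its centre, holds no annotated exon and no footprint inside a peak. It was chosen after its values were seen, from the 5 densest groups of outside footprints. Capitals mark the outside footprints of each library.
replicate 1: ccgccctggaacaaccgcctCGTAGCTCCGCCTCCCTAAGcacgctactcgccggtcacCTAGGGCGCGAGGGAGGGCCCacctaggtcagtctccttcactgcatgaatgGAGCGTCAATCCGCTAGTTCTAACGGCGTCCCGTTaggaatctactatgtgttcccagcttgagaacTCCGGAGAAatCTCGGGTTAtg
replicate 2: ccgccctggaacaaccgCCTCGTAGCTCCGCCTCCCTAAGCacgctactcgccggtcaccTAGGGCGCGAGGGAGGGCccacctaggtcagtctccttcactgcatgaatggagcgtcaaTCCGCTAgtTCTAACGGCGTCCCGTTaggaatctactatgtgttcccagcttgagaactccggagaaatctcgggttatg

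In replicate 1 the stretch held 5 outside footprints that covered 94 bp, at gaps of 42 to 211 bp from the nearest peak. In replicate 2 it held 4 that covered 66 bp, at gaps of 39 to 151 bp. The first footprint ran from base 21 to 40 in replicate 1 and from base 18 to 41 in replicate 2, counted from the first printed base. The second ran from base 60 to 80 and from base 61 to 78. A later one, 35 bp long in replicate 1, was called as a pair of footprints of 7 and 17 bp in replicate 2. The last 2 of replicate 1, of 9 bp each, had no counterpart in replicate 2. The edges of the first pair of footprints moved by 1 to 3 bases between libraries, while the next one had its left edge 9 bases apart and was split.

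Only 640 outside footprints had the same start and end in both libraries and lay outside the peaks of all 4 lists. Of these, 522 (81.6%) were within 1 kb of a transcript start. Windows of 30 bp around several of them, with a consensus of a known factor in capitals, show the kinds of sites that the set contains. They were picked as the footprint with the motif that was farthest from any peak of the 4 lists, or nearest to a coding gene start. Each is given with its gene in GENCODE and is printed on the strand that carries the motif. The motif may lie in the window beside the footprint. Coordinates below are those of the footprint, and its distance from a start is that of its centre.
NRF1, Spty2d1: attcttgtGCGCATGCGtagcttcggggct
NRF1, Anapc16: tgctagcGCGCATGCGtggagggggcggag
CRE, Odf2l: ggcggcgggggaTGACGTCAgggcgacggg
CRE, Troap: tggctccgtgTGACGTCAcgaccctccgag
SP/KLF, Ubtd2: gtggcggccgcggccccatGGGCGGGtgcg
YY1, Eif2a: cgggacAAGATGGCGccgtccacaccgctg
RFX half-site, Josd2: tgtgcctgGTTGCCAggtgacaggaaaagg
NEUROD/ATOH E-box, Rb1cc1: agtcggctgatttcggggcagCAGATGagg
ZIC, Lingo1: gggcagcgatcCAGCAGGgcaggttggaag

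The NRF1 footprint of Spty2d1, a histone chaperone gene, was at chr7:47008776-47008796, 375 bp upstream of the coding start in a noncoding exon and 196 bp from the nearest peak in both libraries. That of Anapc16, a subunit gene of the anaphase-promoting complex, was 44 bp long at chr10:60003112-60003155, with its centre 1 bp past the start in the UTR, so that it spanned the start. In both, and in the CRE examples, the footprint covered the whole motif. The CRE footprint of Odf2l was 118 bp from a peak, at chr3:145118798-145118821. The footprint of Troap was 40 bp from one, at chr15:99074920-99074943 in the UTR. The footprint of Ubtd2 was 312 bp from any peak, at chr11:32455472-32455478 in the UTR, and shared no base with the SP/KLF letters beside it, at chr11:32455479-32455485. The footprint of Eif2a, a translation initiation factor gene, lay 9 bp past the start in a coding exon, at chr3:58526062-58526068. It covered 3 of the 9 bases of the YY1 consensus and was 22 and 2 bp from a peak. The footprint of Josd2 was at chr7:44468241-44468248 in a noncoding exon, covered 4 of the 7 bases of the RFX half-site and was 61 bp from the nearest peak. The footprint of Rb1cc1, an autophagy gene, was at chr1:6214345-6214351 in a noncoding exon, beside the E-box with no shared base, 297 bp upstream of the coding start. The footprint of Lingo1, a neuronal receptor gene, covered the whole ZIC consensus and was the only distal one among these 9, in an intron 8650 bp upstream of the nearest coding start, at chr9:56777770-56777776. No footprint with the same start and end held the CTCF consensus or the full palindromic NFI site.

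The longest footprints of this kind were G- and C-rich stretches upstream of Pcbp3, Lpcat3 and Extl3. All 3 were intergenic and lay between 326 and 397 bp upstream of a coding start. The one near Pcbp3, at chr10:76962185-76962241, was 57 bp long and was 125 bp from a peak in replicate 1 and 5 bp from one in replicate 2. The one near Lpcat3, at chr6:124662606-124662654, was 49 bp long, 167 and 147 bp from a peak. The one near Extl3, at chr14:65150172-65150216, was 45 bp long, 92 and 72 bp from a peak. They are shown whole, since their length sets them apart from the usual 9 bp.
Pcbp3: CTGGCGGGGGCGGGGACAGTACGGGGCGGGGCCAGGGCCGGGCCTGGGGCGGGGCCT
Lpcat3: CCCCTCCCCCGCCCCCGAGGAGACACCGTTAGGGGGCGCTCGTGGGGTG
Extl3: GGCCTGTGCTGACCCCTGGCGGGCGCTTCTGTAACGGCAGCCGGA

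Examples were also taken from the distal members, over 1 kb from every transcript start. For 6 motifs, the distal member that overlapped an outside footprint of the other library and had the lowest FDR of the cut rate in the weaker of both libraries is printed below. This rule was added after the values were seen. The FDR (false discovery rate, a q-value) is the authors' measure of how far a base's cut rate stands above background.
CTCF, 96164 bp from Rab39b: cagttgcacttcatacCCACCAGGTGGCga
NFI half-site, 72778 bp from Irf2bp2: ctgcatgtTTGGCAaagggacggaggaggg
NEUROD/ATOH E-box, 229228 bp from Triqk: ataaaaagatgcCAGATGtcatgaggccaa
ZIC, 4595 bp from Amer3: gCAGCAGGttcagccctataaactgcccca
AP-1, 1083 bp from Mxi1: gcTGATTCAggtgcacaacctccccgcctt
SP/KLF, 1285 bp from Mex3b: cgggccgGGGCGGGgttcgggcctcggcgc

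The CTCF footprint near Rab39b was intergenic, at chrX:75674371-75674419 in replicate 1, and was 49 bp long in both libraries with its edges 1 bp apart. It lay 31 and 30 bp from the nearest peak. The intergenic NFI footprint, at chr8:126666753-126666775, was 23 and 22 bp long, and 113 bp from a peak in replicate 1 but 10 bp from one in replicate 2. The E-box footprint near Triqk, at chr4:13147186-13147204, was intergenic and 6 and 3 bp from a peak. The SP/KLF footprint, in an intron at chr7:82866032-82866064, was 33 and 34 bp long and 17 bp from a peak in both. In these 4 the motif lay whole inside the footprint of each library. The footprint of the ZIC example was in an intron at chr1:34584249-34584255, and shared none of the 7 motif bases in replicate 1 and 1 in replicate 2. That of the AP-1 example was in an intron at chr19:53314141-53314157 and covered 2 of the 7 motif bases, and the replicate 2 footprint, which started 12 bases later, covered none. Of the distal outside footprints of replicate 1 with the motif that lay outside all 4 lists, 9 of 14 with CTCF overlapped an outside footprint of replicate 2, as did 102 of 287 with the NFI half-site, 68 of 228 with the E-box, 53 of 142 with ZIC, 10 of 55 with AP-1 and 87 of 197 with SP/KLF.

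Outside footprints were never far from a peak. The median gap, counted so that adjacent bases are 1 bp apart, was 51 bp in replicate 1 and 49 bp in replicate 2. The quartiles of the gap were 21 and 111 bp in replicate 1 and 21 and 105 bp in replicate 2, and the farthest members were 771 and 987 bp from a peak. Members within 10 bp numbered 7440 (13.8%) and 6870 (13.5%), whereas 113 and 53 were over 500 bp away. Just inside the rule, 9794 and 8813 footprints straddled a peak edge, and 4405 and 3962 of them had under 50% of their length in the peak. Of the outside footprints, 49.4% and 57.5% had a peak within 1 kb on both sides. These distances use the calls that chose the members, so they describe the set and were not tested.

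**Figure D1:**
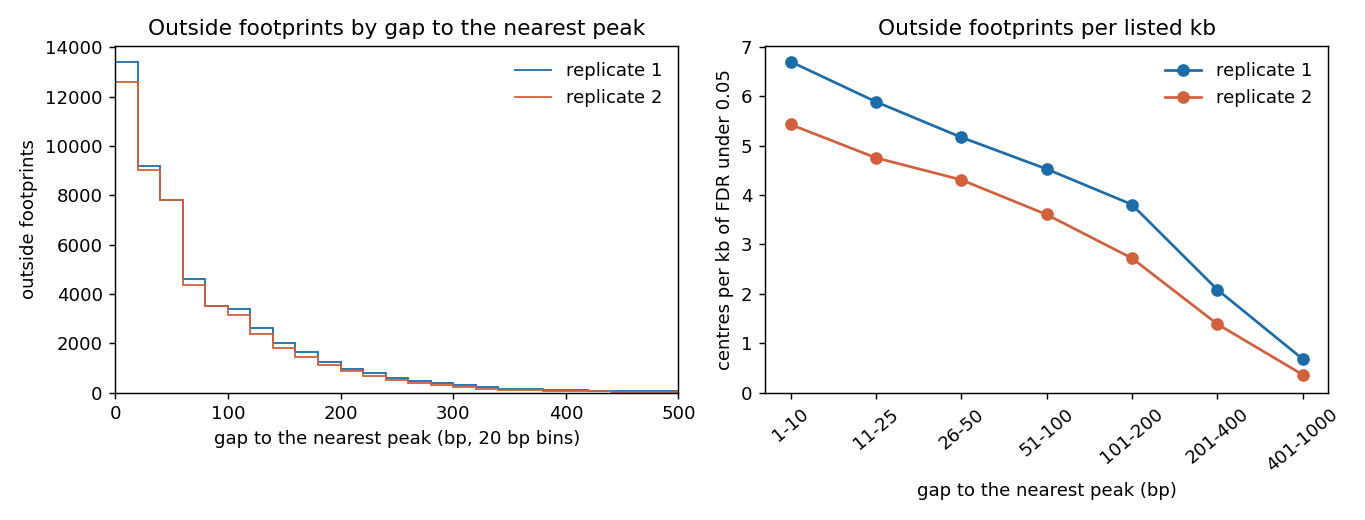
Left, outside footprints in each library by gap to the nearest peak, in bins of 20 bp. Right, all footprint centres outside peaks per kb of sequence with a listed FDR under 0.05, by gap of the centre. These include centres of footprints that straddle a peak edge, which are not members. Members alone were not counted in this way. Both panels fall with the gap, the right one from 6.71 and 5.43 per listed kb at 1 to 10 bp down to 0.681 and 0.363 at 401 to 1000 bp.

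The accessible regions around these peaks reached further than the peaks. In replicate 1, 52119 outside footprints (96.7%) had their centre in an unbroken stretch with FDR under 0.05 that also held a peak, and in replicate 2 48406 (95.2%) did. Another 1135 and 1517 lay in a stretch without a peak. Of these, 9.16% and 10.3% overlapped a footprint of the other library, and 35.0% and 35.1% were promoter footprints. Inside peaks, listed sequence held 11.9 and 10.6 footprint centres per kb. Just outside, at 1 to 10 bp, it held 6.71 and 5.43, and beyond 1 kb, where 0.103 and 0.170 Mb were listed, it held none. These counts take all footprint centres outside peaks, also those of footprints that straddle a peak edge and are not members. As the rule and the peaks rest on the same cuts, the fall is a description.

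The FDR of the cut rate in the own library, which describes the set only, was about as low outside peaks as in stricter ones. It was taken as the lowest value over the bases of a footprint, where any was listed, and was not split by place. The stricter of the 2 peak lists per library holds 61776 and 71141 peaks. The median −log10 FDR at outside footprints was 11.6 and 12.3, that in stricter peaks 11.2 and 12.2, and that in peaks of the longer list alone 2.08 in both. The same position in the other library, which the rule did not use for these members, was listed at FDR under 0.05 for 90.4% and 85.5% of outside footprints and for 86.0% and 80.4% of inside ones. In stricter peaks it was 92.9% and 89.7%, above the outside footprints, and in peaks of the longer list alone 62.0% and 45.2%. The difference from all inside footprints was 4.76 ± 0.430 percentage points (SD, n = 2). In promoters it was 3.15 ± 0.645 points, but among distal footprints outside ones were listed less often in both libraries, by 1.59 and 2.54 points, with 80.0% and 69.8% against 89.7% and 83.7% in stricter peaks.

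The peaks that outside footprints flanked were the strong ones. The nearest peak was on the stricter list for 88.2% and 86.1% of members. Stricter peaks that were nearest to at least 1 member had a median signal, the authors' coverage value, of 3.46 and 2.66, against 1.07 and 0.771 for the other stricter peaks. They were 240 bp wide at the median against 200 bp. Such peaks made up 30.8% and 25.9% of the stricter list. Among promoter peaks, 46.9% and 40.7% were nearest to a member, and among distal peaks 18.8% and 16.9%. Most had few members: 42.5% and 44.5% had 1, and the highest number was 22 in each library. Signal values are not on a common scale between libraries, so they are compared within each.

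Members also gathered in groups. With neighbours within 200 bp joined, there were 27396 and 26987 groups, of which 55.1% and 57.7% held a single footprint. Groups of 5 or more numbered 1901 and 1615 and held 22.6% and 20.5% of all members. The densest groups were taken with the members of both libraries joined together, so they are not the groups counted above. Of these, the densest by the smaller count of both libraries was at Atn1, which encodes atrophin 1, the protein expanded in dentatorubral-pallidoluysian atrophy. It spanned 1710 bp at chr6:124744827-124746536 with 19 members in replicate 1 and 24 in replicate 2, and only 274 and 120 of its bases were in a peak. The groups at Cactin (chr10:81320212-81321520, 17 and 18 members), Leng9 (chr7:4149013-4150076, 14 and 15), Srd5a1 (chr13:69611010-69611954, 16 and 13) and 1810013L24Rik (chr16:8829314-8830662, 13 and 17) followed. Each of these 5 groups spanned several times the bases that were called as peaks within it.

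Outside footprints were promoter-proximal more often than inside ones. Within 1 kb of a GENCODE transcript start lay 70.9% of outside and 46.2% of inside footprints in replicate 1, and 64.4% and 42.3% in replicate 2. Over all footprints the share was 50.4% and 45.8%. The difference was 23.4 ± 1.84 percentage points (SD, n = 2), far larger than its spread between libraries. With 2 libraries the two-sided exact permutation test, which flips the sign of the difference within a library, cannot give a p below 0.5. It gave 0.5 for every outside-inside comparison with the same sign in both libraries, so none can pass a threshold here.

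The promoter share grew with the gap. It was 58.0% and 54.6% at 1 to 10 bp from a peak, 73.4% and 66.1% at 51 to 100 bp, and 94.5% and 81.5% among the 397 and 248 members at 401 to 1000 bp. Mean GC content of the 30 bp window was also higher at the widest gaps, at 69.8% and 64.4% against 59.2% and 58.3% at 1 to 10 bp. In replicate 2 it was highest at 201 to 400 bp, with 65.3%. Members far from any peak were thus mostly at promoters, and their composition moved with the place.

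**Figure D2:**
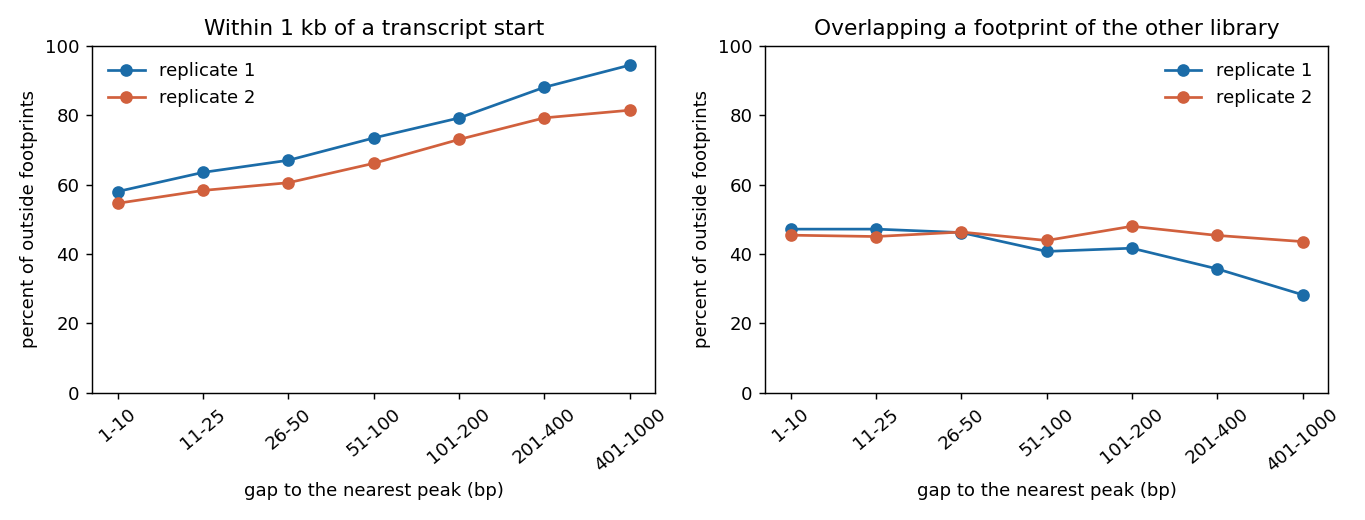
Share of outside footprints within 1 kb of a transcript start (left) and overlapping a footprint of the other library (right), by gap to the nearest peak, with 1 line per library. The promoter share climbs from 58.0% and 54.6% to 94.5% and 81.5%, while the overlap falls from 47.1% to 28.2% in replicate 1 and stays between 43.5% and 48.0% in replicate 2.

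By gene part, outside footprints lay more often in UTRs and in coding and noncoding exons. These shares are over all footprints, and promoter footprints were not counted apart. UTRs held 20.4% and 18.8% of outside centres against 13.5% and 11.7% of inside ones. Coding exons held 11.0% and 8.63% against 8.25% and 6.08%. Noncoding exons held 7.21% and 6.91% against 5.34% and 5.17%. Introns held fewer, 34.4% and 36.9% against 41.1% and 44.2%, and so did intergenic sequence, with 26.9% and 28.8% against 31.8% and 32.8%. All 5 differences had the same sign in both libraries.

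Around coding gene starts the 2 sets occupied different positions. Inside footprints crowded the 200 bp before the start, where 39.3% and 40.4% of those within 1 kb lay, and outside footprints were fewer there, with 23.9% and 24.3%. The first 200 bp of the transcribed side held 35.6% and 33.5% of outside footprints against 25.1% and 23.2% of inside ones. Another shoulder lay 200 to 600 bp upstream, with 18.3% and 20.5% against 11.3% and 12.2%. In all, 54.3% and 50.8% of outside footprints were downstream of the start, and 44.5% and 42.0% of inside ones. The median absolute distance was 158 and 161 bp outside and 115 and 119 bp inside.

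**Figure D3:**
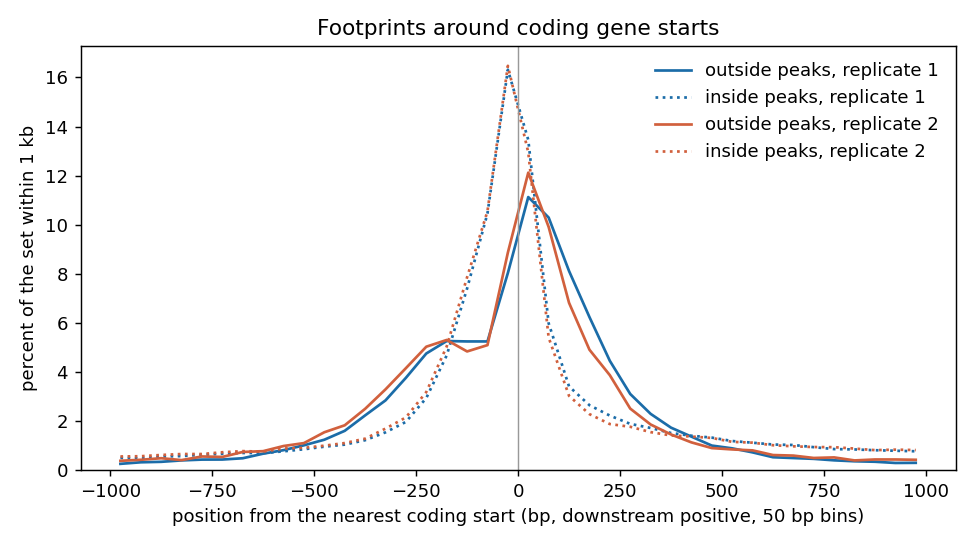
Position of footprints around the nearest coding start in 50 bp bins, as percent of the footprints of each set within 1 kb. Inside footprints (dotted) peak in the 50 bp before the start at 16.3% and 16.5%, and outside footprints (solid) in the 50 bp after it at 11.1% and 12.1%, with a shoulder upstream.

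Outside footprints were shorter. Their mean length was 11.3 bp in replicate 1 and 11.1 bp in replicate 2, against 14.2 and 13.6 bp inside, and the median was 9 bp in both against 11 and 10 bp. The shortest class, 7 bp, made up 31.6% and 33.2% of outside footprints and 22.6% and 23.96% of inside ones. Footprints of 20 bp or longer made up 10.0% and 9.12% against 22.2% and 19.6%, a difference of −11.4 ± 1.24 percentage points (SD, n = 2). The same held among promoter footprints, with 11.1% and 10.6% against 24.6% and 23.1%, and among distal ones, with 7.30% and 6.42% against 20.2% and 17.1%. Footprints in longer-list peaks alone had a mean of 10.7 and 10.3 bp, shorter than outside ones. Among distal footprints this turned, with 10.87 and 10.36 bp against 10.54 and 10.31 bp outside.

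Recurrence in the other library was lower than for all inside footprints, and lay between the 2 kinds of peak. Of outside footprints 43.4% and 45.7% overlapped a footprint of the other library by at least 1 bp, against 52.6% and 51.5% of inside ones. Over all footprints it was 51% and 50.6%. The difference was −7.49 ± 2.32 percentage points (SD, n = 2). In stricter peaks 60.6% and 59.4% recurred, and in peaks of the longer list alone 24.99% and 21.3%, fewer than outside. In promoters, 46.7% and 54.8% of outside footprints recurred, against 59.0% and 63.0% inside. Among distal footprints it was 35.4% and 29.2% against 47.0% and 43.1%. The same start and end recurred for only 2.00% and 1.98% of outside footprints and for 2.48% and 2.41% of inside ones. Shorter footprints have fewer bases to overlap, and the share of this difference that goes with length was not tested.

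Part of the set was outside the peaks of one library alone. A peak of the other library covered 31.1% and 28.5% of outside footprints, against 78.3% and 72.8% of inside ones and 70.2% and 65.8% of all. The other 68.9% and 71.5% were outside the peaks of all 4 lists. An outside footprint of the other library was overlapped by 26.2% and 27.9% of members, against 3.38% and 3.41% of inside footprints and 7.29% of all in each library. In replicate 1, cover by a peak of replicate 2 fell from 45.4% at gaps of 1 to 10 bp to 18.03% at 201 to 400 bp, and in replicate 2 it fell from 32.0% to 19.9%. It was 34.3% and 24.2% among the few members at 401 to 1000 bp.

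Base composition was shifted toward G and C, and for GC of the 30 bp window this went mainly with the place. The 30 bp windows of outside footprints averaged 64.0% and 61.4% GC, against 61.6% and 58.6% inside. In promoters it was 67.4% and 65.7% against 66.9% and 64.7%, and among distal footprints the sign turned, with 55.8% and 53.5% against 57.1% and 54.1%. Within the footprint alone, GC in promoters was 73.0% and 70.7% outside against 70.9% and 68.2% inside. Among distal footprints it was 59.85% and 56.96% against 59.76% and 56.39%, so there the sign did not turn. CpG dinucleotides numbered 2.15 and 1.85 per window outside and 1.59 and 1.33 inside. They were also more frequent outside in promoters than in all inside footprints, with 2.67 and 2.49 against 2.52 and 2.29. Promoter footprints in stricter peaks had 2.68 and 2.45, so against these the sign differed between libraries. Window GC of the same footprints, 67.69% and 65.65% against 67.41% and 65.72% outside, also differed in sign. Among distal footprints they numbered 0.868 and 0.708 against 0.794 and 0.628. Repeats, marked by soft masking over the majority of the window, were at 9.40% and 10.8% of outside and 7.93% and 8.36% of inside footprints. Unlike window GC, the repeat share was higher outside than in all inside footprints both in promoters and among distal footprints. In peaks of the longer list alone it was 10.9% and 11.7%, above the outside share. Among distal footprints this turned, with 11.4% and 11.9% against 11.6% and 13.0% outside.

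Most motifs were rarer in outside footprints than in all inside ones, which pool stricter and longer-list peaks. Consensus letters were searched on both strands without a mismatch, wholly within the 30 bp window centred on the footprint. Of 24 motifs, 17 had a lower share outside in both libraries, 3 a higher one and 4 differed between libraries. Among promoter footprints alone 18 were lower and 1 higher in both, and among distal ones 14 were lower and 6 higher. Within the footprint alone, without its flanks, 23 of 24 were lower outside in each library, where the window gave 19 in each, and outside footprints have fewer bases to hold a motif. A match is a description of the letters and does not show that the factor was bound.

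CTCF had the lowest ratio of the 24. Its consensus was in 0.141% and 0.171% of outside windows, 76 and 87 in number, against 1.69% and 1.58% of inside ones. Over all footprints it was 1.42% and 1.36%. In peaks of the longer list alone it was 1.10% and 0.971%, above the outside share. The ratio of outside to inside was 0.0836 and 0.108. In promoters it was 0.207 and 0.225 and among distal footprints 0.0910 and 0.120, so the lower share was seen in both places. The members with the consensus were long, 22.4 and 19.3 bp at the mean, and 64 (84.2%) and 70 (80.5%) of them overlapped a footprint of the other library. Inside peaks the footprints with the consensus overlapped one in 84.8% and 86.2%.

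The sites of granule neuron factors were also rarer. The E-box CAGATG of NEUROD and ATOH proteins, the factors that specify and mature granule cells, was in 1.54% and 1.93% of outside windows and in 3.26% and 3.95% of inside ones, with 2.97% and 3.63% over all footprints. The ZIC consensus CAGCAGG was in 1.23% and 1.38% against 2.54% and 2.36%, with 2.32% and 2.2% over all. The NFI half-site TTGGCA was in 2.07% and 2.83% against 3.60% and 4.74%, with 3.34% and 4.44% over all. Within the footprint alone the mean ratio of outside to inside was 0.312 for the E-box, against 0.480 in the window, and 0.310 for ZIC, against 0.534. These 3 kept their sign among promoter footprints and among distal ones taken alone, where the outside-to-inside ratios ran from 0.526 to 0.770. MEF2 was in 0.0167% and 0.0315% of outside windows against 0.0354% and 0.0656%, from 9 and 16 windows, and over all footprints the share was 0.0322% and 0.0602%.

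Promoter factor sites fell into 2 kinds. NRF1 (GCGCATGCG) was in 0.147% and 0.138% of outside windows against 0.2498% and 0.235%, although outside footprints were more often at promoters. Over all footprints it was 0.232% and 0.22%. In stricter peaks NRF1 was in 0.310% and 0.286%, but in peaks of the longer list alone in 0.0442% and 0.0410%, below the outside share. CRE (TGACGTCA), bound by CREB and ATF proteins, was in 0.137% and 0.197% against 0.279% and 0.290%, with 0.255% and 0.276% over all. In peaks of the longer list alone CRE was in 0.112% and 0.119%, also below the outside share. NFY (AGCCAAT) was in 0.310% and 0.331% against 0.614% and 0.701%, with 0.562% and 0.642% over all. The share for ETS (CCGGAAGT) was 0.178% and 0.195% against 0.288% and 0.286%, with 0.269% and 0.272% over all. Among promoter footprints alone the ratios were lower still for NRF1, at 0.365 and 0.415, and for CRE, at 0.340 and 0.439. Among distal footprints the sign differed between libraries for NRF1 and CRE, and turned for ETS, with 0.0829% and 0.0663% outside against 0.0421% and 0.0372% inside.

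The G-rich sites went the other way. SP/KLF (GGGCGGG) was in 5.84% and 5.36% of outside windows against 4.92% and 4.15%, with 5.08% and 4.34% over all. EGR (GCGTGGGCG) was in 0.126% and 0.128% against 0.107% and 0.0874%, with 0.11% and 0.0938% over all. YY1 (AAGATGGCG) was in 0.193% and 0.216% against 0.175% and 0.166%, with 0.178% and 0.174% over all. For SP/KLF the sign depended on the place. Among promoter footprints it was lower outside, 7.46% and 7.501% against 9.08% and 8.49%, and among distal ones higher, 1.89% and 1.48% against 1.35% and 0.974%. Within the footprint alone, without its flanks, it was also lower outside, at ratios of 0.872 and 0.928. YY1 was lower outside among distal footprints and within the footprint alone, and in promoters its sign differed between libraries. For EGR the sign differed between libraries in both places.

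**Figure D4:**
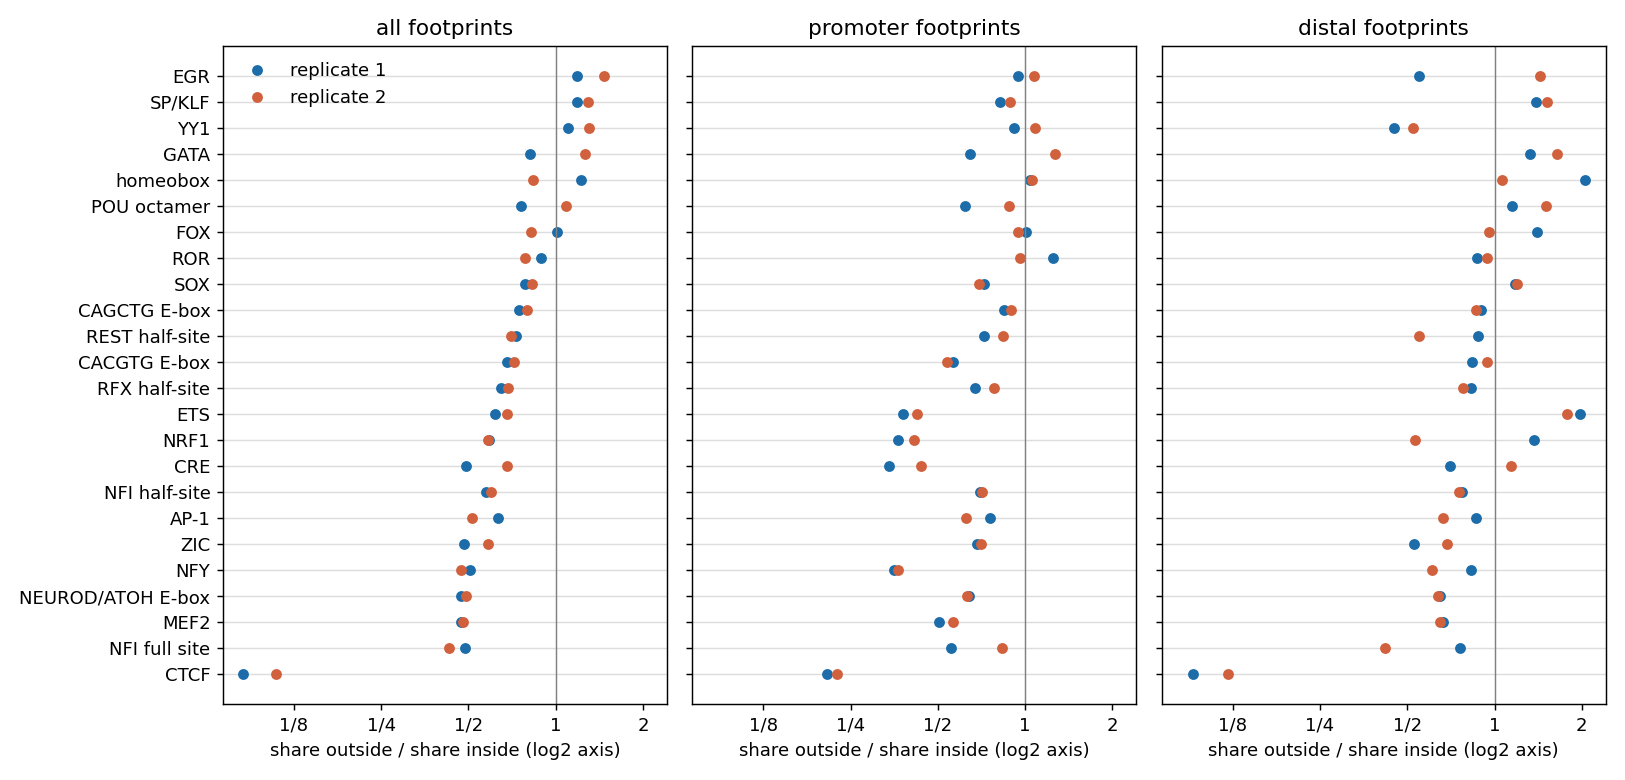
Share of outside windows that hold each motif over the share of inside windows, per library, on a log2 axis, for all, promoter and distal footprints. Points left of 1 are rarer outside. CTCF sits farthest left in all 3 panels, and SP/KLF lies right of 1 for all and for distal footprints and left of it for promoter ones.

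Set against listed sequence outside peaks, several motifs were more frequent at outside footprints. The background was all 30 bp tiles of listed sequence outside peaks. Relative to it, windows of outside footprints held CTCF 7.44 ± 0.791 times as often (SD, n = 2), NRF1 6.60 ± 0.731 times, CRE 5.36 ± 1.33 times and SP/KLF 3.50 ± 0.294 times. In those tiles CTCF stood at 0.0205% and 0.0214%, and in all tiles of the genome at 0.00932%. The full NFI site was 10.2 ± 0.872 times as frequent, from 10 windows in each library, beside 0.0347% and 0.0418% of all footprints. Its background was 0.00194% of 360756 tiles and 0.00182% of 439092, so this ratio rests on very few matches. It was in 0.0186% and 0.0197% of outside windows, fewer than the 0.0380% and 0.0459% of inside ones. GATA, FOX, homeobox, REST, ROR, AP-1, SOX and POU motifs were less frequent than in the tiles in both libraries, from 0.410 ± 0.102 times for GATA to 0.796 ± 0.0905 times for POU. The E-box CAGATG, at 1.00 ± 0.134 times, and MEF2, at 0.865 ± 0.316 times, differed in sign between libraries. AP-1 (TGANTCA) stood at 0.645 ± 0.0166 times, and was in 0.484% and 0.666% of all footprint windows. The tiles include the footprints themselves, so the background is not free of them. Nor were tiles matched to the members by GC, place or gap, and windows of members near a peak can reach into it. How much of these ratios goes with base composition was not tested.

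Members that held an NRF1, CRE, YY1, SP/KLF or CTCF motif overlapped a footprint of the other library more often than all members. The NRF1 motif was in 79 and 70 members, of which 89.9% and 94.3% overlapped a footprint of the other library. For CRE it was 81.1% and 69.0%, for YY1 76.0% and 75.5%, and for SP/KLF 62.1% and 78.8%. Inside footprints with these motifs overlapped one more often still. It was 94.3% and 95.7% for NRF1, and 90.6% and 83.9% for CRE. For YY1 it was 76.0% and 81.7%, and for SP/KLF 76.3% and 86.3%. The high overlap was thus not particular to outside footprints. EGR, at 63.2% and 75.4%, the CACGTG E-box, at 45.1% and 48.9%, and the full NFI site, from 10 members per library, were also above all members. The E-box, at 45.7% and 35.1%, AP-1, at 35.8% and 27.0%, and ZIC, at 44.3% and 46.9%, were near or below the 43.4% and 45.7% of all members. ETS stood at 54.2% and 59.6%, and NFY at 55.7% and 45.8%. Members with NRF1 were 19.8 and 22.4 bp long at the mean and those with AP-1 9.99 and 9.59 bp, so length moved with recurrence. Its part was not tested.

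At genes, outside footprints came with a peak at the same start. Of 21938 coding genes, 46.3% and 42.4% had an outside footprint within 1 kb of a start, 8234 of them in both libraries. Genes without any peak of the library there numbered 8027 and 8293, and of those 5 in each library had an outside footprint. With the peaks of all 4 lists combined, 7646 genes had no peak, and 4 and 3 of them had a member. The 2 genes with members in both were Gm49027, with 2 in each, and Gm10647, with 1 in each. Since no member lay over 987 bp from a peak, a peak within 1 kb of the same start was nearly fixed by the rule, and these counts describe the set.

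The genes with the most members were named after their counts were seen. H2-DMa, an antigen-loading gene, and Brd2, a bromodomain gene that binds acetylated histones, overlap on chromosome 17, so many of their members are the same. H2-DMa had 36 members in replicate 1 and 28 in replicate 2, and Brd2 37 and 26. Next came Nsun2, an RNA methyltransferase gene, with 24 and 22, and Atn1 with 21 and 27. The dense group named for Srd5a1 lies within the annotated span of Nsun2, so members may be the same there too. Mepce had 21 and 24, Cic, a repressor gene mutated in neurodevelopmental disease, 23 and 21, and Sertad2 22 and 21. Inside footprints at Nsun2 numbered 13 and 11, fewer than the outside ones in both libraries, and at Cic they numbered 83 and 69, more than the outside ones in both.

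Lists of cell type markers served to place the signal in the tissue. Of 20 granule cell genes, 16 and 18 had an outside footprint, against 46.3% and 42.4% of coding genes. No granule cell or housekeeping gene of the lists lacked a peak at the start, whereas 8027 and 8293 of all coding genes did. The higher share was not set against genes with a peak alone. These include Cbln1, a secreted synaptic organiser, with 14 and 16 members, Pax6, a granule lineage homeobox gene, with 17 and 12, and Zic2 with 9 and 11. Per granule gene there were 5.10 ± 1.13 outside footprints (SD, n = 2) beside 21.2 ± 1.20 inside ones, against 1.76 ± 0.202 and 5.43 ± 0.197 over all coding genes. Outside ones made up 21.1% and 17.5% of the footprints at granule genes, below the 25.5% and 23.4% over all coding genes. Housekeeping genes had members at 17 of 20 in both libraries, among them Eef2, a translation elongation factor gene, with 13 and 18, Actb with 7 and 13 and Gapdh with 8 and 7.

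The other lists had members at fewer genes. Of 20 Purkinje cell genes 9 and 7 had members, among them Lhx1 (9 and 10) and Rora (9 and 7), 2 transcription factor genes, and Shank1 (3 and 10), a postsynaptic scaffold gene. Bergmann glia and astrocyte genes had members at 8 and 4, with Nfia at 9 and 16 and the glutamine synthetase gene Glul at 7 and 4. Interneuron and unipolar brush cell genes had them at 3 and 3, among them Prkcd with 4 in each library. For oligodendrocyte lineage genes it was 4 and 1, for microglia 2 and 0, for vascular cells 1 and 1, for choroid plexus, ependyma and meninges 3 and 0, and for forebrain and midbrain neurons 2 and 1. Genes of other organs had 1 and 1, and none of 20 Hox genes, which pattern the body axis behind the cerebellum, had one in either library. Hox genes also lacked peaks at all 20 starts in both libraries. In other lists too, genes lacked a peak at the start: 17 in each library for microglia and 13 in each for vascular cells. They numbered 16 and 15 for other organs, and 15 and 10 for choroid plexus, ependyma and meninges. Forebrain and midbrain neurons had 14 and 11, oligodendrocyte lineage 10 and 12, and interneurons and unipolar brush cells 9 in each. Bergmann glia and astrocytes had 5 and 6, and Purkinje cells 4 and 2. The lists thus differed in peaks as well as in members.

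**Figure D5:**
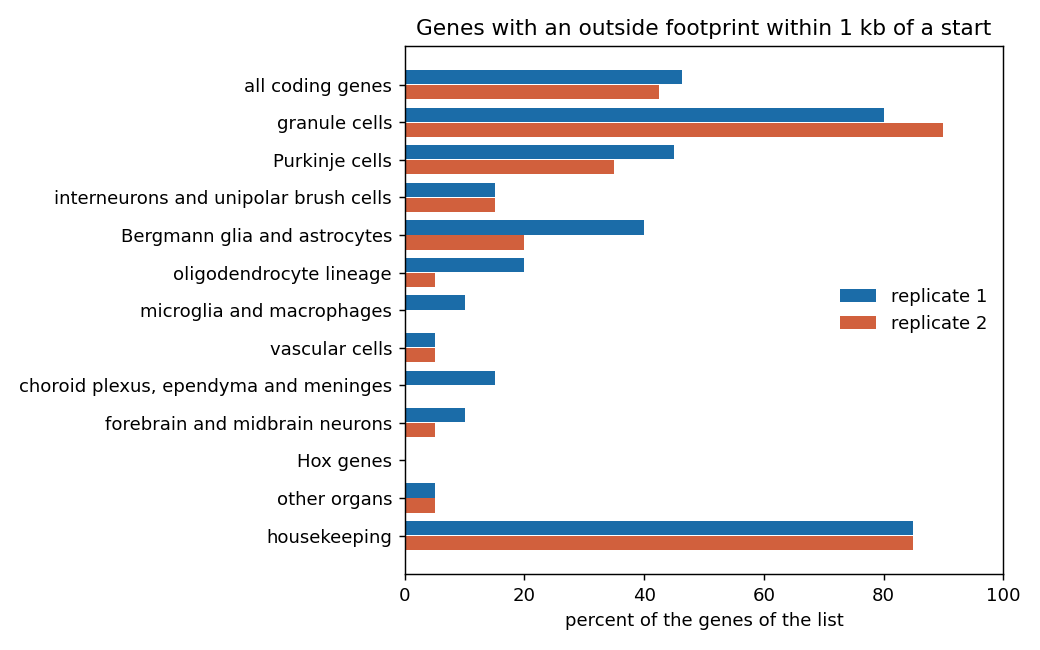
Percent of the genes of each list with an outside footprint within 1 kb of a start, as bars per library. Granule cell and housekeeping genes, at 85.0% each on average, are above all coding genes at 46.3% and 42.4%, and no other list reaches that level in both libraries. Every granule cell and housekeeping gene of the lists had a peak at the start, which 8027 and 8293 of all coding genes lacked.

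Among genes of the 12 lists that lacked a peak of the library at the start, none had an outside footprint in replicate 1, and only Vtn, a vascular gene, had one in replicate 2. Genes differ in how many starts they have and thus in how much sequence is searched. List counts are therefore descriptions of these genes, set beside all coding genes, and not tests of the cell types.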

How the data were processed

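DNase-seq measured DNase I cuts in 2 libraries of cerebellum, numbered as in the labels, mapped to mm10 per the labels. The authors deposited, per library, 2 peak lists with a signal (coverage) value per peak, a table of the FDR (q-value) of the cut rate that lists only intervals under 0.05, and a footprint list with the same deposited value of 0.01 for each footprint, read as the FDR at which it was called. Per the deposited notes, peaks came from the library's alignments and footprints from the FDR table and alignments, without pooling replicates. The sources used here do not name the aligner, the callers, their versions or the number of reads, so the depth behind a footprint is unknown. The list with fewer peaks was taken as the stricter one.

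From these files, intervals were compared with Python 3.11.15, numpy 2.4.6 and pandas 2.3.3, and the functions were tested on simulated data. Starts and gene parts came from GENCODE release 21 and sequence from the RefSeq GRCm38 reference, the assembly also called mm10. The reference is C57BL/6J-derived, so CAST alleles were not read. Footprints within 1 kb of a start by their centre are called promoter footprints and the rest distal. Windows of 30 bp were searched for 24 consensus motifs on both strands. Overlapping motifs were counted each. Where a footprint overlapped several footprints of the other library, only 1 of them was checked for being outside. Motifs not spelled out in the text were TTCAGCACC (REST half-site), CAGCTG and CACGTG (other E-boxes), TAGGTCA (ROR), ACAATGG (SOX), AGATAAG (the zinc finger factors of the GATA family), TAATTA (homeobox), ATGCAAAT (POU octamer), GTTGCCA (RFX half-site) and TGTTTAC (FOX), and the CTCF, MEF2 and full NFI sites are given by name.

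Outside and inside footprints were compared by a two-sided exact permutation test over libraries. The members, the 12 gene lists and the motifs were chosen with earlier results of these data known. Named footprints, groups and genes followed a rule: per motif the footprint farthest from a peak and the one nearest to a start, the 5 densest groups, the 3 longest, and genes without a peak. Genes with the most members, the distal examples and the printed stretch were added after the values were seen. All 21 chromosomes were counted, and no sequence from chromosome 18 is printed. The alternatives tried were other peak lists, overlap rules, windows and start distances, and each library alone.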

Additional observations from a re-analysis of the deposited data

How the results depend on the processing

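Precision is limited by 2 libraries and an unknown depth, and values below are means of both libraries. The outside share of all footprints, 16.5%, was 34.6% against the stricter list alone, 11.6% against the 4 lists of both libraries, 17.8% when 50% of the footprint had to lie in a peak, and 8.19% with peaks widened by 50 bp. Against the longer list alone it was 16.6%. The median gap of 50 bp was 45.5 bp to the nearest of the 4 lists for members outside all 4, and 63.5 bp to stricter peaks. The promoter share of 67.7% was 60.3% within 500 bp and 73.2% within 2 kb of a start. The mean length of 11.2 bp was 10.8 bp for members at least 50 bp from a peak, 11.5 bp in promoters and 10.4 bp among distal members. Recurrence, 44.5%, was 1.99% for the same start and end, 31.4% when 50% of each footprint had to overlap, 42.9% for members at least 50 bp from a peak, 50.7% in promoters and 32.3% among distal members. Mean GC of 62.7% was 67.5% in the footprint alone, and soft-masked bases rose from 9.74% to 10.9%. Genes with an outside footprint but no peak of the library went from 5 to 2 with a window of 2 kb. The ratio of outside to inside share fell below 1 for SP/KLF within the footprint alone (0.9004) and in promoters (0.853). For YY1 it fell below 1 within the footprint alone (0.611) and among distal footprints (0.487). In promoters the YY1 ratio was 1.00, with 0.917 in replicate 1 and 1.08 in replicate 2. The split into promoter and distal footprints was chosen after seeing the data. Leaving out either library gave outside shares from 15.8% to 17.2%.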
